A study of Mus musculus with 12 samples.

Results

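Fam110c, Pi16, Vip, Nppb, Rasl11a and Dcxr are 6 protein-coding mouse genes whose RNA showed some of the largest differences between cells given Lap2 siRNA and cells given control siRNA, among well-counted genes, those that averaged 100 normalized counts or more over all libraries. They were picked for that difference and share no known pathway. They are 6 of the 49671 genes counted, and all 6 belong to the 18668 genes that had more than 1 read in at least 3 libraries and entered the tests. Because the differences between siRNAs chose these genes, those differences are given here as values without a test. The serum effect averaged over both siRNAs was tested for Pi16, Vip, Rasl11a and Dcxr. This average weighs both siRNAs alike, so a choice by their difference favours neither sign where all groups have the same spread. Nppb and Fam110c averaged under 100 normalized counts in 0.3% FBS and counted as well-counted through their level in 15% FBS, so that their serum effect is given as a value too. Vip averaged under 100 with control siRNA in both serum conditions and counted as well-counted through its level with Lap2 siRNA. With Lap2 siRNA, Dcxr averaged under 100 in both serum conditions and Pi16 in 0.3% FBS.

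RNA was sequenced from NIH 3T3 cells, an established mouse embryonic fibroblast line, in 12 libraries. The 4 groups of 3 libraries were control siRNA in 0.3% fetal bovine serum (FBS), control siRNA after 45 min in 15% FBS, Lap2 siRNA in 0.3% FBS, and Lap2 siRNA after 45 min in 15% FBS. The control was a commercial non-targeting siRNA, and the Lap2 siRNA was a single sequence against total Lap2, a family of lamina-associated proteins made from the gene Tmpo. All cells came from 1 line and were transfected, and with 1 siRNA sequence an effect of losing Lap2 cannot be told apart from any other effect of that sequence. The labels give a replicate number but not what a replicate was, so the p-values measure the spread between these libraries, which may be technical. Total counts ran from 18026298 to 26265253 reads per library. Values are normalized counts, that is reads scaled to the mean effective library size of the 12 libraries, as mean ± SD of 3 libraries unless single libraries are named.

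Tmpo itself was checked first. Its RNA with Lap2 siRNA stood at 38.4% of control in 0.3% FBS and at 22.2% of control in 15% FBS, with log2 fold changes of -1.38 and -2.17 (edgeR adjusted p = 8.7e-16 and 3.8e-19). Gapdh, a glycolytic enzyme gene often used as a reference, differed by 0.08 and -0.12 on the log2 scale (adjusted p = 0.34 and 0.15). The cells carried the RNA of fibroblasts, and all 11 fibroblast markers were tested. Fn1 averaged 180750 and Col1a2 178414 normalized counts. Of 15 markers of other cell types, Krt18 and Myh6 and Myog had 0 reads. The 15 together summed to 254 to 363 normalized counts per library, with the most counts from Snap25. In bulk RNA, fewer cells expressing a gene and less of its RNA per cell cannot be told apart.

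The 6 genes fall into secreted products and intracellular proteins. Vip encodes vasoactive intestinal peptide, a neuropeptide that relaxes smooth muscle through receptors that raise cyclic AMP. Nppb encodes the precursor of B-type natriuretic peptide, a hormone of the stressed heart that acts through a guanylyl cyclase receptor. Pi16 encodes a secreted CAP-domain protein, peptidase inhibitor 16, whose RNA marks a fibroblast population found around vessels in many tissues. Fam110c belongs to a small family of proteins found at centrosomes and microtubules and is little studied. Rasl11a is a small RAS-like GTPase that has been linked to ribosomal RNA transcription by RNA polymerase I. Dcxr is dicarbonyl and L-xylulose reductase, an NADPH-dependent enzyme of the uronate route of glucose metabolism.

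The genes lie on 6 different chromosomes of the mm10 build, and no other annotated gene overlaps any of them. Vip is on the plus strand of chromosome 10 (chr10:5639218-5647617) and its longest coding transcript has 7 exons. Nppb is on the plus strand of chromosome 4 (chr4:147985788-147987205) with 3 exons and 781 exonic bases, the shortest of the 6. Pi16 is on the plus strand of chromosome 17 (chr17:29318877-29329413) with 7 exons. Fam110c is on the plus strand of chromosome 12 (chr12:31073968-31079937) with 2 exons. Rasl11a is on the plus strand of chromosome 5 (chr5:146845071-146847726) with 4 exons, and Dcxr is on the minus strand of chromosome 11 (chr11:120725399-120727281) with 8 exons.

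Sequence near the start of the gene is shown for some of the genes. These are Fam110c and Nppb, which rose steeply with serum, and Vip, which had the highest log2 fold change with Lap2 siRNA in 15% FBS. The sequences are the RefSeq GRCm38.p6 plus strand, 5′ to 3′, and cover the 250 bases before the start of Fam110c (chr12:31073718-31073967) and of Vip (chr10:5638968-5639217). Capitals mark matches to GGAATG, which TEAD factors bind, and to TGANTCA with any base at N, a looser pattern than the AP-1 sequence. They also mark the short form of the cyclic AMP response element, TGACG. The TATA box, TATAAA, is marked likewise. For Nppb the RefSeq start lies 112 bases inside the gene as the count files place it, so that only 30 bases around its GGAATG match are shown (chr4:147985783-147985812), most of them inside the gene so placed.
Fam110c: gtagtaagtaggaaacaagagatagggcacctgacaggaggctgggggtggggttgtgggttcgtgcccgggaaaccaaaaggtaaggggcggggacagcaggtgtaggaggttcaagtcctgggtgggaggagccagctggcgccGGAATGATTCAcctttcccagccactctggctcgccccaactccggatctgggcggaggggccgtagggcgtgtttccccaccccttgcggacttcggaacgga
Nppb: gctcagccggcaGGAATGcagctgataaat
Vip: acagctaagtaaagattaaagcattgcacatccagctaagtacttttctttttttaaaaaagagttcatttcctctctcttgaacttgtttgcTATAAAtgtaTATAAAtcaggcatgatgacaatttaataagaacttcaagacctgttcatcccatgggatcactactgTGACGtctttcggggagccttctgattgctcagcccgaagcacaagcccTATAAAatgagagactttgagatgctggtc

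Fam110c held GGAATG from base 104 and Nppb from base 105 before the RefSeq start, which for Nppb is inside the gene as the count files place it. In Fam110c it overlapped TGATTCA, which begins at base 100, and CCGGAA, an ETS-type sequence that begins at base 106. Searched on both strands of the same 250-base window in 27025 RefSeq promoters, GGAATG was present in 12.6%, TGANTCA in 6.87% and CCGGAA in 12.2%. Nppb and Vip held TATAAA ending 26 and 25 bases before the RefSeq start, a sequence found in 13.0% of promoters, and Vip held it at 2 further places. Vip also held TGACG, found in 17.9% of promoters, from base 79, and Rasl11a held it on the other strand from base 89. Pi16, Rasl11a and Dcxr held CCAAT, found in 34.5% of promoters. The full cyclic AMP response element TGACGTCA (1.62% of promoters) and the CArG box, the sequence bound by serum response factor (1.4%), were not found in these windows of the 6 genes, which says only that these letters are not there. The promoters differed in base composition, with 62.4% G and C and 13 CpG in Fam110c and 63.6% and 15 in Rasl11a, against 38.4% and 3 in Vip and medians of 52.0% and 6 over all promoters.

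Each of the 6 genes had its own pattern over the 4 groups, shown library by library in the plot of normalized counts. Over all 18668 genes the edgeR test called 36.5% in 0.3% FBS and 23.4% in 15% FBS at an adjusted p under 0.05. These shares are background only, as the same contrasts chose the 6 genes.

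**Figure D1:**
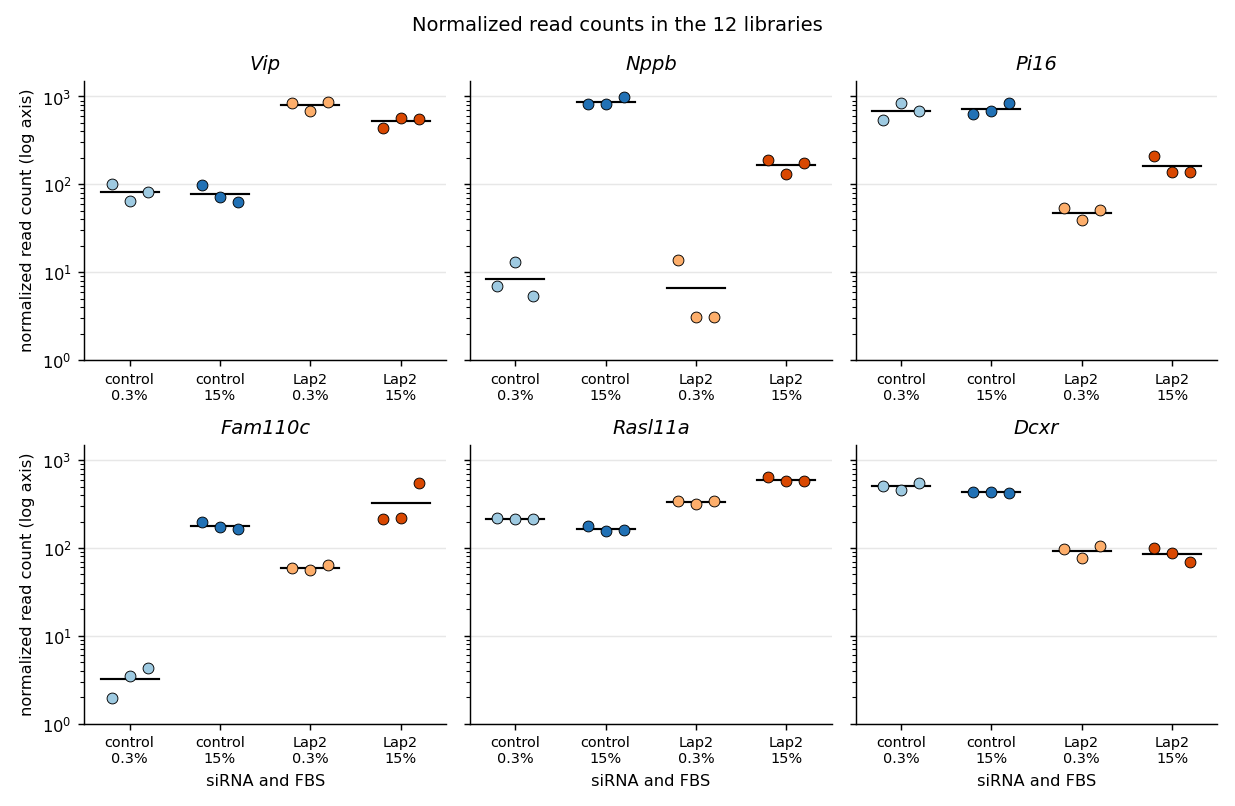
Normalized read counts of the 6 genes on a log axis, 1 point per library and a line at each group mean, for control and Lap2 siRNA in 0.3% and 15% FBS. Vip is high and Dcxr and Pi16 are low in all 6 Lap2 siRNA libraries, Nppb and Fam110c are lowest in 0.3% FBS, and 1 Fam110c library of the last group stands apart at 545.9.

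Vip was low in control cells and high with Lap2 siRNA in both serum conditions. The control libraries held 102.1, 64.12 and 80.9 normalized counts in 0.3% FBS and 99.38, 72.21 and 62.45 in 15% FBS. With Lap2 siRNA they held 851.1, 685.5 and 871.4 in 0.3% FBS and 438.9, 572.6 and 558.4 in 15% FBS. The lowest Lap2 siRNA library was thus above every control library. The group means, 82.4 ± 19.0 against 803 ± 102 in 0.3% FBS and 78.0 ± 19.1 against 523 ± 73.4 in 15% FBS, differed 9.75-fold and 6.71-fold, with log2 fold changes of 3.29 (SE 0.15) and 2.73 (SE 0.15). With control siRNA the serum groups overlapped, while with Lap2 siRNA all 3 libraries in 15% FBS were below all 3 in 0.3% FBS, at 65.2% of their mean.

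Nppb was a serum-induced gene whose level in 15% FBS was lower with Lap2 siRNA. In 0.3% FBS it was near the limit of detection, with 6.87, 13 and 5.393 normalized counts in the control libraries. The Lap2 siRNA libraries held 13.77, 3.121 and 3.09. These groups overlapped, and the 21 reads with Lap2 siRNA against 27 with control gave a ratio of 0.798 with a 95% interval of 0.429 to 1.47 that covers counting error only. In 15% FBS the control libraries held 811, 813.1 and 980.3 and the Lap2 siRNA libraries 187.1, 130.4 and 175.8, so that the groups were far apart. Mean levels there were 868 ± 97.1 and 164 ± 30.0, which is 18.9% of control and a log2 fold change of -2.4 (SE 0.14). The rise from 0.3% to 15% FBS was 103-fold with control siRNA and 24.7-fold with Lap2 siRNA, where the log2 response of 4.54 was 5.65 without the first library in 0.3% FBS. The 0.3% FBS values of Nppb rest on single libraries: the Lap2 siRNA log2 fold change of -0.32 (SE 0.5) was -1.43 without the first Lap2 siRNA library of that group and 0.19 without the second control library, and the difference between the 2 serum responses, -2.08 (SE 0.56), was -0.98 without that Lap2 siRNA library.

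Pi16 was abundant in control cells irrespective of serum and low with Lap2 siRNA. The control libraries held 541.7, 849.1 and 675.2 normalized counts in 0.3% FBS and 627.3, 678.5 and 850.9 in 15% FBS. The Lap2 siRNA libraries held 53.25, 39.53 and 50.47 in 0.3% FBS and 212.5, 138.9 and 137.2 in 15% FBS. Every Lap2 siRNA library was below every control library. The means with Lap2 siRNA were 6.93% of control in 0.3% FBS and 22.7% in 15% FBS, with log2 fold changes of -3.84 (SE 0.18) and -2.15 (SE 0.15). The serum groups overlapped with control siRNA, at a ratio of means of 1.04, and were apart with Lap2 siRNA, at a ratio of 3.41.

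Fam110c was almost silent in starved control cells. Its control libraries in 0.3% FBS held 2, 4 and 4 reads, or 1.963, 3.466 and 4.315 normalized counts, while the Lap2 siRNA libraries held 59.68, 56.17 and 63.86. The 181 reads against 10 gave a ratio of 18.6 with a 95% counting interval of 9.87 to 39.4, and the fitted log2 fold change was 4.16 (SE 0.51). In 15% FBS the control libraries held 196.1, 172.1 and 162.8 and the Lap2 siRNA libraries 214.9, 220.6 and 545.9. The groups did not overlap there, but the log2 fold change of 0.89 (SE 0.21) was 0.28 without the third Lap2 siRNA library. That library was more than 2-fold above both others of its group for 3 of 10449 well-counted genes, Fam110c among them. The rise with serum was 54.5-fold with control siRNA and 5.46-fold with Lap2 siRNA, and the log2 serum response with Lap2 siRNA of 2.46 was 1.85 without that library.

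Rasl11a had serum responses of opposite sign with the 2 siRNAs. The control libraries held 216.9, 214 and 215.7 normalized counts in 0.3% FBS and 175.7, 157.3 and 159.5 in 15% FBS. The Lap2 siRNA libraries held 345.2, 316.2 and 340.9 in 0.3% FBS and 639.9, 573.7 and 582.6 in 15% FBS. No 2 groups overlapped. Lap2 siRNA means were 1.55-fold control in 0.3% FBS and 3.65-fold control in 15% FBS, with log2 fold changes of 0.63 (SE 0.1) and 1.86 (SE 0.1). With control siRNA the mean in 15% FBS was 76.2% of that in 0.3% FBS, and with Lap2 siRNA it was 179%.

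Dcxr was lower with Lap2 siRNA by nearly the same ratio in both serum conditions. The control libraries held 505.4, 456.6 and 549 normalized counts in 0.3% FBS and 433.9, 439.2 and 424.9 in 15% FBS. With Lap2 siRNA they held 96.41, 76.98 and 104 in 0.3% FBS and 99.34, 88.01 and 68.6 in 15% FBS, every one below every control library. Means with Lap2 siRNA were 18.4% and 19.7% of control, with log2 fold changes of -2.44 (SE 0.13) and -2.35 (SE 0.13). The difference between its 2 serum responses was 0.09 (SE 0.19), the smallest of the 6 genes.

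**Figure D2:**
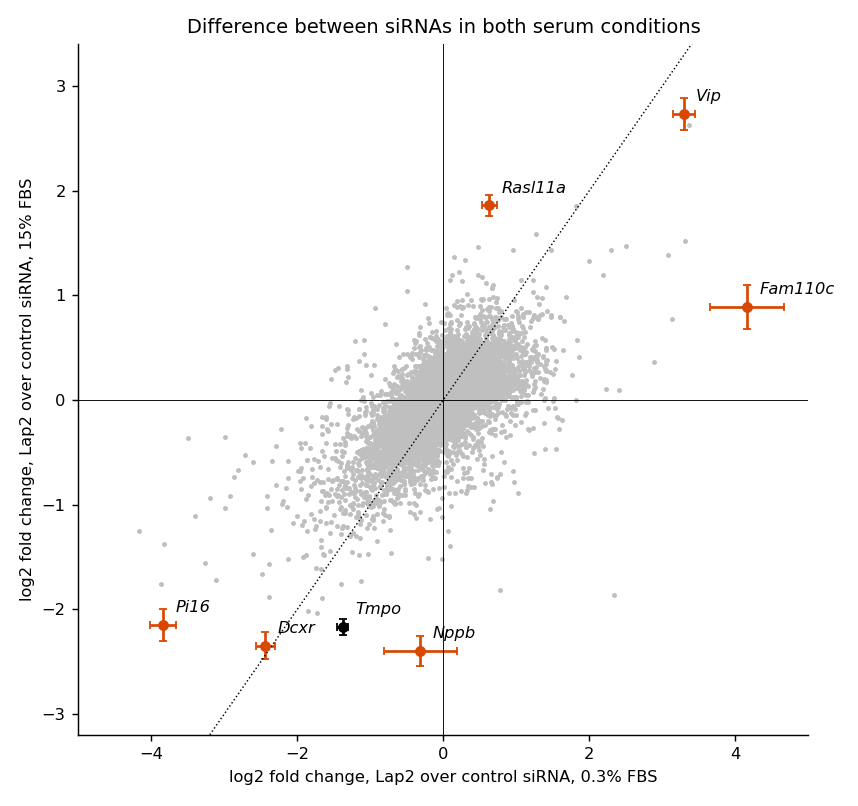
Log2 fold change of Lap2 over control siRNA in 0.3% FBS (horizontal) and 15% FBS (vertical), with SE bars for the 6 genes in orange and Tmpo in black, and the other well-counted genes in grey. The dotted line marks equal fold changes: Dcxr at -2.44 and -2.35 lies on it, Nppb and Rasl11a differ mainly in 15% FBS, and Fam110c mainly in 0.3% FBS.

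Among the 10449 well-counted genes, the places of the 6 in the order of log2 fold changes depended on serum. In 0.3% FBS Fam110c was the highest, followed by Gpnmb at 3.36 and Slc40a1 at 3.30, and Vip came at rank 4, just above Dock8 at 3.13. Pi16 was at rank 3 from the bottom, between Igfbp5 at -3.87 and Mfap4 at -3.83, and Dcxr was at rank 19. Rasl11a was at rank 673 from the top in 0.3% FBS, and Nppb was near neither end. In 15% FBS Vip was the highest and Rasl11a was at rank 3, next to Cd24a at 1.85. Nppb and Dcxr were the lowest and second lowest, Tmpo followed at -2.17, and Pi16 came at rank 4 above Actg2 at -2.03, while Fam110c was at rank 54 from the top. The other genes in this order are named only to place the 6 and were picked from their values.

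The serum effect averaged over both siRNAs came from a single edgeR fit of the 12 libraries with adjustment over all 18668 genes. Of all genes, 38.3% passed this test, 20.4% higher and 18.0% lower in 15% FBS. For Nppb it was 5.58 on the log2 scale (SE 0.17) and for Fam110c 4.09 (SE 0.24), without a test, since their level in 15% FBS had a part in their choice. With each siRNA, every library in 15% FBS was above every library in 0.3% FBS for both genes. This only describes the values, as the level in 15% FBS made both genes well-counted. Pi16 rose by 0.9 (SE 0.12, adjusted p = 2.6e-07), an average of 0.06 (SE 0.13) with control siRNA and 1.75 (SE 0.21) with Lap2 siRNA. The rise thus lay in the Lap2 siRNA libraries, which also had a part in the choice of Pi16, and the SE differed between siRNAs.

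The remaining serum effects were small and less stable. Vip had a mean serum effect of -0.33 (SE 0.11, adjusted p = 0.016), which no longer passed without the first control library in 0.3% FBS (-0.24, adjusted p = 0.12) or without the third control library in 15% FBS (-0.27, adjusted p = 0.071). Rasl11a had a mean effect of 0.22 (SE 0.072, adjusted p = 0.012), made of -0.39 (SE 0.11) with control siRNA and 0.84 (SE 0.094) with Lap2 siRNA. It did not pass with scaling to total counts (0.01, adjusted p = 0.96), with upper-quartile scaling (0.12, adjusted p = 0.19) or without the first control library in 15% FBS (0.19, adjusted p = 0.055). For Dcxr the mean effect of -0.17 (SE 0.094, adjusted p = 0.16) did not pass, and passed at -0.39 (adjusted p = 0.00071) with total counts and at -0.28 (adjusted p = 0.019) with upper-quartile scaling. Scaling to total counts moved the median of all genes in this contrast to -0.22.

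**Figure D3:**
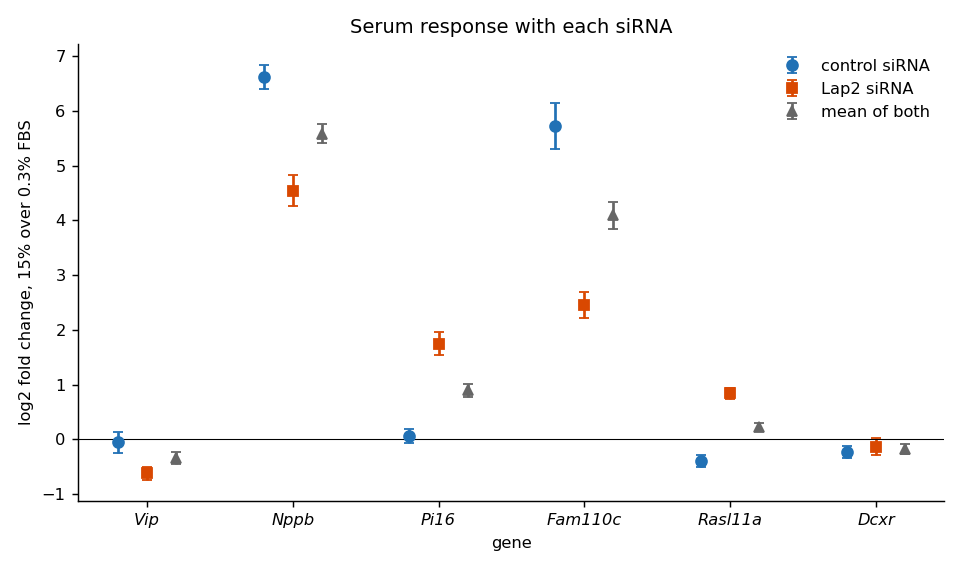
Log2 fold change of 15% over 0.3% FBS with SE for each of the 6 genes, with control siRNA (circles), with Lap2 siRNA (squares) and averaged over both (triangles). Nppb and Fam110c sit far above 0 with both siRNAs, Pi16 rises from 0.06 to 1.75 between the siRNAs, and Rasl11a lies below 0 with control siRNA and above 0 with Lap2 siRNA.

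Levels can be compared between genes only per kilobase (RPKM), here over all annotated exons. These are longer than the longest coding transcript for Vip (3402 against 1530 bases) and Pi16 (6364 against 3994), so that the levels of both genes would be higher over that transcript, and no order is read where it turns on them. In 0.3% FBS with control siRNA Dcxr had the highest level, 20.9 ± 1.92. Rasl11a was at 8.51 ± 0.0572, Pi16 at 5.13 ± 1.15, Vip at 1.15 ± 0.265, Nppb at 0.511 ± 0.245 and Fam110c, the lowest, at 0.0499 ± 0.0183. In 15% FBS with control siRNA Nppb led with 52.7 ± 5.9. With Lap2 siRNA Rasl11a stood at 13.2 ± 0.618 and Vip at 11.2 ± 1.42 in 0.3% FBS. In 15% FBS Rasl11a stood at 23.6 ± 1.42, Nppb at 9.98 ± 1.82 and Vip at 7.29 ± 1.02. Dcxr at 3.54 ± 0.644 in that group was below Fam110c at 5.02 ± 2.91, although the spread of Fam110c covers the difference.

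Over the 12 libraries, some of the 6 genes ran together. The Pearson correlation of log2 CPM was 0.9 for Pi16 and Dcxr and 0.81 for Vip and Rasl11a. Vip ran against Pi16 and against Dcxr, with r = -0.96 for both, and Nppb and Fam110c gave r = 0.7. These values describe 12 points that share 4 groups and carry no test. Because the genes were chosen for their differences between siRNAs, high r of either sign follows in part from that choice.

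Genes whose pattern was most like that of each of the 6 were named by the highest r among well-counted genes. For Fam110c they were Tmem183a (r = 0.988), Eif5 (0.987), a translation initiation factor gene, and Dusp4 (0.986), a MAP kinase phosphatase gene with group means that went from 27.0 to 662 normalized counts in control cells and from 199 to 847 with Lap2 siRNA. For Nppb they were Abracl (0.989), Csrp1 (0.988), a LIM-domain protein gene, and Tstd3 (0.987). Pi16 was matched by Smoc2 (0.994), a matricellular protein gene, Lipa (0.994), the lysosomal acid lipase gene, and Tubb2b (0.993), a tubulin gene. Vip was matched by Sparcl1 (0.986), Rgs17 (0.985) and Nadk2 (0.98), Dcxr by Rabl6 (0.991), Gyg (0.99) and Wbp1 (0.99), and Rasl11a, less closely, by Acat1 (0.977), Ackr3 (0.96) and Slpi (0.955). A high r does not mean a change of the same size: Tmem183a differed by 0.46 between siRNAs in 0.3% FBS on the log2 scale where Fam110c differed by 4.16.

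The families and pathways around the 6 genes were examined through 9 lists with 105 genes, of which 74 entered the tests. Their edgeR calls are given as counts beside the share of all genes called, and since the lists were drawn up with results of these data known, the calls are not independent support. In 0.3% FBS 16 of the 74 rose and 27 fell. The background there was 17.8% of all genes higher and 18.6% lower. In 15% FBS 15 of them rose and 22 fell, beside 11.4% of all genes higher and 12.1% lower. These 4 shares are the background for each list that follows. The median log2 fold change of the related genes was -0.07 and 0.04, against 0.01 and 0.02 over all genes. Scaling to total counts moved the median of all genes to 0.12 and 0.10, which changed the background from 3330 higher and 3480 lower to 4692 and 2638 in 0.3% FBS, and from 2125 and 2250 to 3471 and 1678 in 15% FBS. The related genes then counted 25 higher and 23 lower, and 19 higher and 17 lower.

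**Figure D4:**
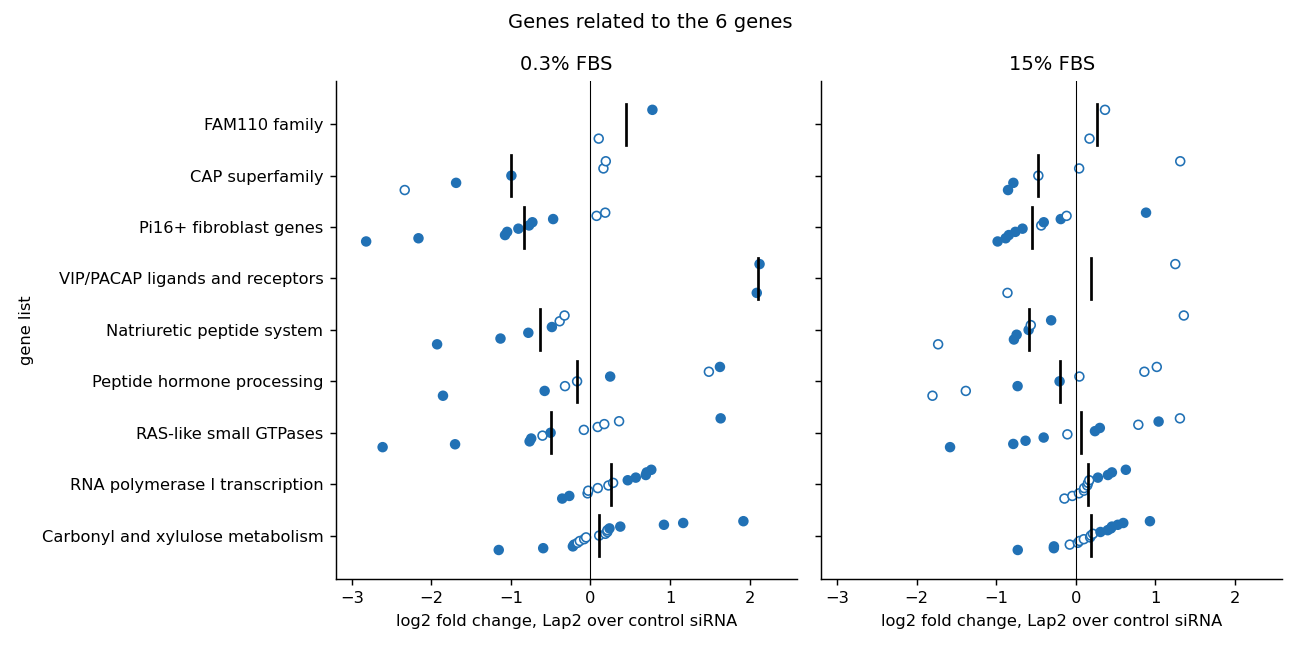
Log2 fold change of Lap2 over control siRNA in 0.3% FBS (left) and 15% FBS (right) for the tested genes of 9 lists, filled where the edgeR adjusted p is under 0.05, with a line at each list's median. Genes with 0 reads in a compared group are not drawn. Genes that accompany Pi16 in fibroblasts lie mostly below 0, with 8 and 7 of 10 lower.

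Genes known to accompany Pi16 in fibroblasts were mostly lower with Lap2 siRNA. Of 11 listed genes 10 were tested, and 8 were lower and 0 higher in 0.3% FBS, with a median log2 fold change of -0.84. In 15% FBS 7 were lower and 1 was higher, with a median of -0.55. Of all genes, 18.6% and 12.1% were lower. With total counts 8 fell and Dpt rose in 0.3% FBS, while 6 fell and 1 rose in 15% FBS. Cd248 (-0.19, adjusted p = 0.0325) was lost there, as it was without the second or the third 15% FBS library of either siRNA. Clec3b, a secreted lectin-like protein gene, had 816 normalized counts in control and 115 in Lap2 siRNA cells in 0.3% FBS, and fell by 2.82 on the log2 scale (SE 0.167, adjusted p = 3.74e-15) there and by 0.67 in 15% FBS (adjusted p = 0.000521). Sema3c, a semaphorin gene, fell by 2.16 (SE 0.165) and by 0.84 (SE 0.147), Ly6a, which encodes Sca-1, by 1.07 and 0.88, and Cd34, a sialomucin gene, by 1.05 and 0.76. Dpt, the dermatopontin gene, went the other way in 15% FBS, at 0.88 (SE 0.087, adjusted p = 1.13e-09). Dpp4, a defining marker of these fibroblasts, had 0 reads in the 12 libraries.

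Pi16 moved with general fibroblast markers as well. Beside 18.6% and 12.1% of all genes lower, 8 of the 11 fibroblast markers fell and 2 rose with Lap2 siRNA in 0.3% FBS, while 9 fell and 0 rose in 15% FBS, at medians of -0.49 and -0.40. With total counts these were 7 lower and 3 higher, and 8 lower and 2 higher. The call of Thy1 in 0.3% FBS (-0.19, adjusted p = 0.0384) was lost with DESeq2, upper-quartile and total-count scaling and without any of 5 libraries, and that of Fn1 in 15% FBS (-0.23, adjusted p = 0.0184) with total counts and without any of 4. Their summed level was 885000 ± 11400 normalized counts in control and 593000 ± 57100 in Lap2 siRNA cells in 0.3% FBS, and 951000 ± 45700 and 687000 ± 41400 in 15% FBS. Their part in the values of Pi16 was not tested. The 15 markers of other cell types summed to 362 ± 2.17 and 285 ± 21.9 in 0.3% FBS, and of the 9 tested 1 rose, 1 fell and 7 did not pass. There Tubb3, a neuronal tubulin gene, fell by 3.0 and Tnnt2, a cardiac troponin gene, rose by 2.21 with Lap2 siRNA (adjusted p = 4.25e-12 and 0.000515). Snap25, a synaptic gene with the most counts among them, differed there by -0.05 (adjusted p = 0.827). In 15% FBS Tubb3 fell by 1.83 and Tnnt2 differed by 0.63 (adjusted p = 0.369).

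Among other genes with a CAP domain, 5 of 13 were tested and 2 passed, both lower in each serum condition. Pi15, the closest relative of Pi16 by name and domain, had group means of 294 and 91.6 normalized counts in 0.3% FBS and fell by 1.69 (SE 0.144) there and by 0.78 (SE 0.138) in 15% FBS. Glipr2, a Golgi-associated family member, fell by 0.99 (SE 0.077) and by 0.85 (SE 0.069). The median of the 5 genes was -0.99 in 0.3% FBS and -0.47 in 15% FBS, and R3hdml and the Crisp genes had 0 to 3 reads in all.

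Receptors for the products of Vip and Nppb were present at different levels. Vipr1 and Adcyap1r1, receptors of Vip and of its relative PACAP, were scarce, with 107 and 86 reads over the 12 libraries. They were the only tested genes of 9 in that list. In 0.3% FBS they were higher with Lap2 siRNA by 2.09 (SE 0.697, adjusted p = 0.0171) and 2.13 (SE 0.711, adjusted p = 0.0175). Leaving out the first or the second control library of that serum condition ended both calls, as did leaving out the second Lap2 siRNA library for Vipr1 (1.07, adjusted p = 0.33) and the first for Adcyap1r1 (1.55, adjusted p = 0.14). In 15% FBS neither passed, and Vipr2 had 6 reads.

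The natriuretic peptide receptors were lower with Lap2 siRNA. Npr3, the clearance receptor, fell from 302 to 79.9 normalized counts in 0.3% FBS, by 1.93 on the log2 scale (SE 0.136, adjusted p = 2.19e-13), and by 0.74 (SE 0.132) in 15% FBS. Npr2, the receptor of C-type natriuretic peptide, fell by 0.78 (SE 0.073) and by 0.59 (SE 0.074). Npr1, the receptor of the peptide that Nppb encodes, fell by 1.13 (SE 0.228) in 0.3% FBS and by 0.78 (SE 0.241, adjusted p = 0.0166) in 15% FBS, where the call was lost without the third control library (-0.62) or the second Lap2 siRNA library (-0.65). Furin, a protease that processes such precursors, fell by 0.49 and 0.31. These 4 were the genes of the list that passed, out of 8 tested, with 0 higher in either condition, and the median over genes with reads in both groups was -0.63 and -0.59. Nppa, the atrial peptide gene that neighbours Nppb on the same strand, had 13 reads in the 12 libraries and none in 0.3% FBS.

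Of 10 peptide hormone processing genes 7 were tested. In 0.3% FBS 2 rose and 2 fell, beside 17.8% and 18.6% of all genes, and with total counts 3 rose and 1 fell. Pcsk2, a convertase gene at -1.85 (adjusted p = 0.04), was at -0.97 (adjusted p = 0.42) without the second control library and at -1.3 (adjusted p = 0.17) without the second Lap2 siRNA library. Without the third Lap2 siRNA library its call was lost at a larger fold change, -2.03 (adjusted p = 0.058). In 15% FBS 0 rose and 2 fell, Pam among them, whose call was lost without the second control, the first Lap2 siRNA or the second Lap2 siRNA library there. With total counts 0 rose and 1 fell in 15% FBS, and Pam was at -0.12 (adjusted p = 0.22). The medians were -0.17 and -0.20. Cpe, the carboxypeptidase E gene, had 8179 and 5488 normalized counts in 0.3% FBS and fell by 0.58 (SE 0.062) there and by 0.73 (SE 0.062) in 15% FBS. Vgf, a neurosecretory protein gene, rose by 1.63 with Lap2 siRNA in 0.3% FBS (SE 0.288, adjusted p = 2.32e-05) and differed by 0.05 (adjusted p = 0.884) in 15% FBS. Its group means of 9.98 and 31.3 in 0.3% FBS and 165 and 170 in 15% FBS stood in the same order as those of Fam110c.

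Among other RAS-like GTPases, 11 of 17 were tested. In 0.3% FBS 1 rose and 5 fell with Lap2 siRNA, at a median of -0.5, while 3 rose and 4 fell in 15% FBS, at a median of 0.07 over the 10 with reads in both groups. Of all genes, 17.8% rose and 18.6% fell in 0.3% FBS, against 11.4% and 12.1% in 15% FBS. The call of Gem in 15% FBS (0.24, adjusted p = 0.0252) was lost without any 1 of the 6 libraries there. Rrad (-0.63, adjusted p = 0.0434) was lost with DESeq2 (adjusted p = 0.052), with total counts (adjusted p = 0.077) and without any of 4 libraries, reaching -0.39 without the third control library. Diras2 added a second rise in 0.3% FBS with DESeq2, upper-quartile and total-count scaling. Rasl11b, the nearest relative of Rasl11a, was at 165 with control and 117 with Lap2 siRNA in 0.3% FBS, and at 75.4 and 155 in 15% FBS. It was lower by 0.50 (SE 0.14, adjusted p = 0.00463) in 0.3% FBS, a call lost without the second control library (-0.38, adjusted p = 0.066), and higher by 1.04 (SE 0.151, adjusted p = 2.22e-06) in 15% FBS. Its serum response was -1.14 (SE 0.149) with control siRNA and 0.40 (SE 0.143) with Lap2 siRNA, and the difference of 1.54 (SE 0.206) passed the interaction test (adjusted p = 1.51e-06). Rasl10b fell by 2.61 and 1.58, Rit1 by 0.77 and 0.78, and Nkiras2, an inhibitor of NF-kappaB signalling, by 0.75 and 0.40, in 0.3% and 15% FBS.

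For RNA polymerase I transcription, 12 of 15 listed genes were matched and tested. With Lap2 siRNA 5 rose and 2 fell in 0.3% FBS, while 4 rose and 0 fell in 15% FBS, at medians of 0.26 and 0.15 and beside 17.8% and 11.4% of all genes higher. In 0.3% FBS Ttf1, 1 of the 2 that fell, was lost with total counts (-0.16, adjusted p = 0.2) and without any of 3 libraries. With total counts the numbers were 8 higher and 1 lower, and 7 higher and 0 lower. In 15% FBS the calls of Taf1a and Polr1a were both lost without the first control library (adjusted p = 0.15 and 0.069) or the third Lap2 siRNA library (adjusted p = 0.16 and 0.052), which left Polr1b and Taf1d of the 4. Polr1b, which encodes the second largest subunit, rose by 0.77 (SE 0.094) and 0.63 (SE 0.099), Taf1d by 0.70 (SE 0.085) and 0.46 (SE 0.085), and Polr1a, the largest subunit, by 0.71 (SE 0.075) in 0.3% FBS. Ubtf, which encodes the factor UBF, fell by 0.36 in 0.3% FBS (SE 0.06, adjusted p = 1.11e-05) and differed by -0.04 (adjusted p = 0.698) in 15% FBS.

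All 17 listed genes of carbonyl and xylulose metabolism were tested. In 0.3% FBS 5 rose and 4 fell, while 7 rose and 3 fell in 15% FBS, at medians of 0.11 and 0.19 and beside 17.8% and 11.4% of all genes higher. Leaving out 1 library ended the calls of Dhrs3, Akr1b8, Ugdh and Sord in 0.3% FBS and of Khk, Sord, Cbr2 and Xylb in 15% FBS in at least 1 case, Khk going from 0.46 to 0.23 (adjusted p = 0.31) without the third control library. With total counts they were 8 higher and 2 lower, and 8 higher and 1 lower. Xylb, the xylulokinase gene, further along the same route, rose by 1.17 (SE 0.251) and 0.93 (SE 0.274), the second call being lost without the first library of either siRNA in 15% FBS. Akr1b3, the aldose reductase gene, rose by 0.92 (SE 0.075) and 0.60 (SE 0.076). Cryl1, which encodes the enzyme that makes L-gulonate into the precursor of L-xylulose, fell by 1.15 (SE 0.144) and 0.73 (SE 0.142), and Glo1, the glyoxalase I gene, fell by 0.59 (SE 0.072) in 0.3% FBS. Of the other FAM110 genes, Fam110a rose by 0.78 (SE 0.159) in 0.3% FBS, Fam110b differed by 0.10 (adjusted p = 0.546), and Fam110d had 2 reads.

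With serum, averaged over both siRNAs, 21 of the 74 related genes were higher and 18 lower in 15% FBS, at a median of 0.08 against -0.01 over all genes. With total counts these became 13 higher and 28 lower, where all genes went from 3799 higher and 3360 lower to 1862 and 7478, and with upper-quartile scaling all genes were 2640 higher and 5037 lower. Glipr2 rose by 1.58 (SE 0.052) and Vgf by 3.24 (SE 0.147). Clec3b rose by 1.0 on average, with group means of 816 in 0.3% and 776 in 15% FBS in control cells, and of 115 and 489 normalized counts in Lap2 siRNA cells.

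The nearest tested genes on either side of each of the 6 make 12 neighbours. With Lap2 siRNA 2 of them rose and 3 fell in 0.3% FBS, beside 36.5% of all genes called. In 15% FBS 1 rose and 3 fell, beside 23.4% of all genes called, and this total of 4 became 2 without the third Lap2 siRNA library in 15% FBS. Cbr2, a carbonyl reductase gene on the same strand 2207 bases from Dcxr, differed by -0.06 (adjusted p = 0.669) in 0.3% FBS and by -0.27 (adjusted p = 0.015) in 15% FBS. That call was lost with total counts (-0.19, adjusted p = 0.1), without the first control library in 15% FBS (adjusted p = 0.052) and without the first or the third Lap2 siRNA library there (adjusted p = 0.059 and 0.058). Rac3, 1429 bases away on the other side, differed by 0.25 (adjusted p = 0.357) and 0.05 (adjusted p = 0.916). Mtch1, 2658 bases from Pi16, fell by 0.50 (SE 0.059) in 0.3% FBS, where Pi16 was lower by 3.84. Fbxo5, 151542 bases from Vip, rose by 1.15 (SE 0.11) and 0.54 (SE 0.129). Near Fam110c, Sh3yl1 at 113805 bases fell by 0.62 in 0.3% FBS (adjusted p = 0.00845, lost without the second control or the third Lap2 siRNA library), and Lamb1 at 185296 bases by 0.26. Rpl21 and Gtf3a beside Rasl11a and 2510039O18Rik beside Nppb did not pass in either serum condition.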

How the data were processed

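Libraries had been prepared from ribosome-depleted RNA with a directional kit. The deposited values are counts: the authors aligned the reads with TopHat2 to mm10 and counted them per gene with HTSeq, 1 table per library. Versions and the strand setting of the counting are not given in the sources used here. The submitters' processing notes also name DESeq2. Symbols were matched for 49326 of 49671 identifiers (99.3%). Genes that exceeded a count of 1 in 3 or more libraries were fitted in edgeR 4.0.16 (R 4.3.3; TMM scaling, quasi-likelihood test, a mean for each of the 4 groups, Benjamini-Hochberg adjustment over all 18668 genes, threshold 0.05). The main values come from 1 fit of all 12 libraries, and no pair of libraries was identical. Intervals for ratios of few reads are exact and cover counting error only. Exact tests of 3 against 3 libraries cannot go below p = 0.1 and were not used. Alternatives were DESeq2 1.42.0, total-count and upper-quartile scaling, filterByExpr, any count above 0, a replicate block, the compared groups alone, and leaving out each library. The fit was tested on simulated counts for the mean serum effect only, with 200 changed genes and the same dispersion for every gene. The other contrasts and the sequence search were not tested in this way.

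The 6 genes and the lists of related genes and markers were chosen with earlier results of these data known. The text names the 6 genes, Tmpo, Gapdh, list members, and the nearest tested gene on each side of the 6. For each of the 6 it names the 3 genes of highest r (log2 CPM, prior count 2). It also names genes near the 6 in the order of log2 fold changes, which were picked from their values. Levels per kilobase use the union of exons in GENCODE M21, and promoters are from RefSeq GRCm38.p6, matched by symbol for all 6 genes. The motifs were chosen with the results known and before the sequences were read.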

Additional observations from a re-analysis of the deposited data

Results flagged for a closer look

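Groups held 3 libraries, so no library was tested as an outlier. The following results are listed because the Lap2 siRNA effect differed between 15% and 0.3% FBS in the edgeR interaction test at an adjusted p under 0.05. The share of all genes that passed this test was not counted, so these calls cannot be set against it. Values are the log2 effect of Lap2 siRNA in 15% FBS minus that in 0.3% FBS.

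For the siRNA target Tmpo the difference was -0.79 (adjusted p = 3e-06), its RNA being lower relative to control in 15% FBS. Among genes that accompany Pi16 in fibroblasts it was 2.15 for Clec3b, 1.32 for Sema3c, 0.72 for Cd248, 0.70 for Dpt, 0.33 for Efemp1, 0.29 for Cd34 and -0.51 for Anxa3. Among fibroblast markers it was 1.2 for Pdgfra, 0.97 for Dcn, 0.94 for Lum, 0.79 for Col3a1, -0.38 for Thy1 and -0.61 for Fn1. Receptor and CAP genes gave 1.19 for Npr3, 0.9 for Pi15 and -2.95 for Vipr1, and peptide processing genes gave -0.45 for Pam and -1.58 for Vgf. RAS-like genes gave 1.54 for Rasl11b and 1.07 for Rrad. RNA polymerase I genes gave 0.31 for Ubtf, -0.3 for Rrn3 and -0.43 for Polr1a, and carbonyl genes 0.32 for Glo1, 0.27 for Ugdh and -0.32 for Akr1b3. Neighbours gave 0.31 for Mtch1, -0.37 for Syne1 and -0.61 for Fbxo5, and the neuronal marker Tubb3 gave 1.17.

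Leaving out 1 library ended the call in at least 1 case for Vipr1, Rrad, Ugdh, Glo1, Syne1, Cd34, Efemp1, Akr1b3, Rrn3, Tubb3, Mtch1 and Fbxo5. Rasl11a is listed because all its libraries were lower in 15% FBS with control siRNA and higher with Lap2 siRNA. That difference of 1.23 was not tested, since the contrasts that chose the gene share its libraries.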

How the results depend on the processing

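The mean serum effect of Pi16 passed throughout, at 0.68 to 0.91 under the 6 other settings and 0.79 to 1 when a library was left out. Related genes called numbered 43 in 0.3% FBS (42 to 48 under other settings, 39 to 45 with a library left out), 37 in 15% FBS (36 to 39, and 30 to 39) and 39 with serum (35 to 41, and 36 to 41). Neighbours called numbered 5 in 0.3% FBS (4 to 5, and 4 to 6) and 4 in 15% FBS (3 to 5, and 2 to 4), the 2 coming without the third Lap2 siRNA library in 15% FBS. With scaling to total counts, called serum effects changed sign for Cd34 (0.14 to -0.08), Efemp1 (0.16 to -0.06), Taf1b (0.19 to -0.03), Col1a1 (0.19 to -0.03) and Col1a2 (0.15 to -0.07), all no longer passing. Same-numbered libraries did not deviate together (correlations of -0.12 to 0.10, median -0.01, over 18 pairs, against -0.21 to 0.22 for 36 other pairs), and 3 of 12 were closest to their own number, so the labels' numbers were not taken as pairs. With the replicate block 42, 37 and 39 related genes were called, 5 and 4 neighbours, and 6756, 4343 and 7090 of all genes against 6810, 4375 and 7159. Depth limits Nppb and Fam110c in 0.3% FBS, where single libraries held 3 to 15 Nppb reads and the control libraries 2 to 4 Fam110c reads.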
